A study of Danio rerio with 10 samples.

Results

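The regions described here are the H3K4me3 regions of zebrafish eye muscle that lie away from promoters. They are the rows of the authors' H3K4me3 region table with a promoter count of 0 and a length under 7000 bp, which holds for 3096 of 18746 regions (16.5%), called members below. H3K4me3, histone H3 trimethylated at lysine 4, was mapped by ChIP-seq (immunoprecipitation of chromatin, then sequencing) in the lateral rectus, the muscle that turns the eye outward, together with acetylation (H3K27Ac) and trimethylation (H3K27me3) of lysine 27. Each mark had 1 library at each of 3 stages, namely uninjured muscle (control) and muscle at 9 and 18 hours post-injury (hpi), after about 50% of the lateral rectus of both eyes had been excised. The series title speaks of an epigenetic reprogramming that is transient during regeneration, so the stages ask which changes appear at 9 hpi and what the muscle looks like at 18 hpi.

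Tissue of 119 fish was pooled for the control, of 192 for 9 hpi and of 200 for 18 hpi. The design text names wild-type fish. The growth protocol names wild-type fish and α-actin::EGFP transgenics of 4 to 18 months, and the sources used here do not say which fish entered which pool. The cells are labelled as adult muscle cells, and the control samples carry the treatment label "injury" beside the time label "Control". With 1 pool and 1 library per mark and stage no difference below has a replicate check, so no test, p-value or standard deviation is given. A region is called higher or lower where its average pileup plus 1 differed at least 2-fold between libraries. The average pileup is the number of overlapping tags per bin as the authors deposited it, and all log2 changes are on the log2(pileup + 1) scale, which understates the change of weak regions. Where 3 values stand in a row, they are those of control, 9 hpi and 18 hpi. In a bulk sample, fewer cells of a type and less mark per cell cannot be told apart.

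H3K4me3 is laid down by Set1 and MLL family methyltransferases and is best known as a mark of the start sites of active genes. H3K27Ac, written by p300 and CBP, covers active promoters and active enhancers, which usually carry more mono- than trimethylated lysine 4. H3K27me3 is the mark of Polycomb repression, and its joint presence with H3K4me3 is known from developmental genes. H3K4me3 away from annotated promoters has been described at strong enhancers, at alternative or unannotated start sites and at CpG islands inside or between genes.

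The promoter count is the authors' own annotation, and the deposited distances show what it left out. Among the members, the smallest distance from a region's edge to a listed gene start was 7499.5 bp upstream of the start and 2500.5 bp on the gene's side of it. No transcript data were used here, so "promoter" means a promoter in the authors' annotation. The length limit left out 74 longer regions with a promoter count of 0. Just inside it, 8 members of 6999 bp had mean pileups over the 3 libraries of 11.5 to 38.9, and just outside it 11 regions of 7199 bp had 19.0 to 71.7.

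The marker genes of the labelled tissue were read at the H3K27Ac region with the smallest listed distance to the gene start. Of 8 skeletal muscle markers 7 had a region listed, all but ttn.1, with a summed H3K27Ac pileup of 141, 130 and 72.6. The leukocyte markers (4 of 5, all but lcp1) summed to 35.1, 81.2 and 50.5, and the endothelial markers (4 of 4) to 42.6, 53.7 and 35.5. The Schwann cell and nerve markers (4 of 4) summed to 68.1, 35.2 and 33.5, the fibroblast and tendon markers (3 of 4, all but tnmd) to 37.2, 26.0 and 32.5, and the erythrocyte markers (3 of 3) to 37.6, 19.7 and 11.9. No marker with a region was at 0 in any library. These sums are pileups as deposited, not set relative to the median log2 change of all H3K27Ac regions, 0.11 at 9 hpi and -0.21 at 18 hpi. Marker sums of other cell types thus moved with the stages, that of leukocytes being highest at 9 hpi, although its marker spi1b was highest at 18 hpi (1.69, 11.5 and 16.4), and that of erythrocytes in control, and their part in the changes below was not tested.

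The members were weak and short beside H3K4me3 regions at promoters. Their median length was 1799 bp, with quartiles of 1199 and 3199 bp, and that of the 14399 promoter regions under 7000 bp was 3399 bp. Their median average pileup was 11.9 (control), 10.7 (9 hpi) and 11.8 (18 hpi), where promoter regions had 26.5, 25.4 and 27.1. The peaks inside the regions differed more, with a median maximum pileup of 31, 28 and 31 tags in members and 128, 117 and 134 tags in promoter regions. The 3096 members covered 7.03 of the 67.0 Mb of all H3K4me3 regions, and 1401 of them reached the 25th percentile of the whole table, a mean pileup of 12.2.

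**Figure D1:**
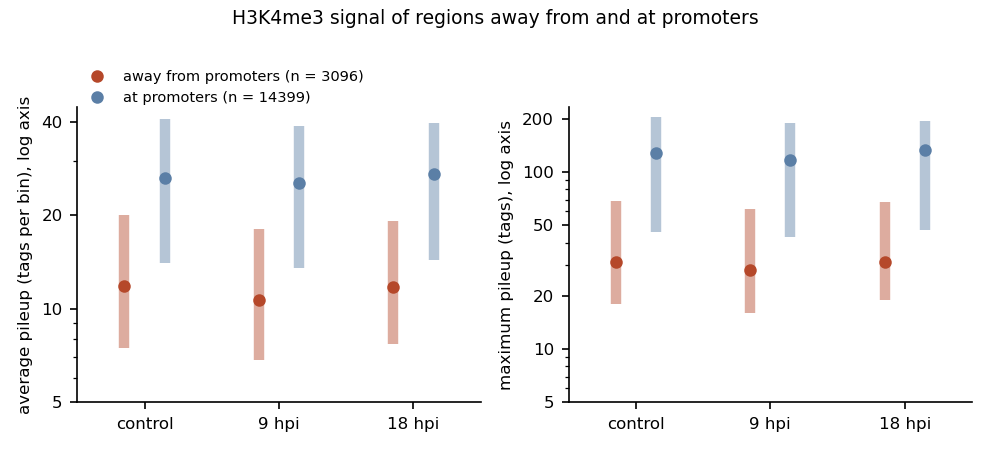
H3K4me3 signal in the 3 libraries for regions away from promoters (red, n = 3096) and promoter regions under 7000 bp (blue, n = 14399). Points are medians and bars run from the lower to the upper quartile over regions, on logarithmic axes. At each stage the median of the regions away from promoters (10.7 to 11.9) lies below the lower quartile of the promoter regions (13.6 to 14.4).

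Many members were called in some libraries and not in others. An interval of all 3 H3K4me3 libraries was present in 1726 members (55.7%, exact 95% interval 54.0 to 57.5%, counting error only), against 86.1% of the promoter regions. The control library had an interval in 2366 members, the 9 hpi library in 2262 and the 18 hpi library in 2446. An interval of the control alone was present in 356 members, of 9 hpi alone in 167 and of 18 hpi alone in 321 (11.5%, 5.39% and 10.4%), against 3.18%, 1.64% and 2.26% of promoter regions. Both injured libraries without the control had an interval in 242 members (7.82%), against 3.69% of promoter regions.

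A subset of the members was as strong as a typical promoter. The median mean pileup of promoter regions was 26.4, and 451 members reached it. Of these 451, 445 (98.7%) overlapped an H3K27Ac region, 174 (38.6%) a CpG island and 178 (39.5%) an H3K27me3 region, and 115 (25.5%) had no gene listed by the authors. Of the 2645 weaker members, 75.1% overlapped H3K27Ac, 9.91% a CpG island and 29.2% H3K27me3, and 19.4% had no gene listed. All but 2 of the 451 were called in all 3 libraries.

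The strongest member, at chr11:27489401-27492200 (danRer10, counted from 1), lay downstream of cass4, a scaffold protein of focal adhesions, 40814 bp from its start. Its H3K4me3 pileup was 121 (control), 116 (9 hpi) and 85.4 (18 hpi), and its H3K27Ac pileup was 23.7, 46.8 and 40.4. The second, at chr16:51696201-51698800, had no gene listed, held 2 CpG islands and lay wholly in H3K27me3. It also overlapped H3K27Ac, with an H3K27Ac pileup of 13.9, 28.9 and 16.8, and its H3K4me3 pileup was 116, 111 and 88.3. Both were thus lowest in H3K4me3 at 18 hpi, by less than 2-fold. The other member near cass4 had 10.4, 12.5 and 13.9.

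The member within tpm3, which encodes a tropomyosin, an actin-filament protein, lay at chr19:11094001-11098000, 17155 bp past the gene start. It had an H3K4me3 pileup of 97.6, 100.0 and 91.0 and an H3K27Ac pileup of 42.4, 70.32 and 49. The member within bcl2l11, which encodes the pro-apoptotic protein Bim, lay at chr13:47110401-47114600 and wholly in H3K27me3. It also overlapped H3K27Ac, with an H3K27Ac pileup of 29.9, 48.6 and 24.7. Its H3K4me3 pileup was 95.2, 96.2 and 78.7. One of the 2 members downstream of ndufv2, a subunit of mitochondrial complex I, had 114, 105 and 83.1, and the other 4.86, 5.34 and 3.02. The other 3 of the 8 strongest were a region at chr16:203801-205400 with no gene listed and regions downstream of LOC563111 and LOC101882885. None of these 8 differed 2-fold between stages in H3K4me3.

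The strongest members without a gene listed included 2 more, at chr25:1747801-1749400 (94.4, 85.3 and 77.9) and chr15:9442401-9443600 (83.9, 73.3 and 78.8). Each of them held a CpG island and overlapped H3K27Ac, whose pileup was 44.6, 75.2 and 44.3 at the first and 49.4, 77.9 and 43.6 at the second. In these 2 regions H3K27Ac was highest at 9 hpi while H3K4me3 was highest in control.

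Between injured muscle and control, a larger share of members than of all H3K4me3 regions crossed the 2-fold line, in both directions. At 9 hpi, 181 members (5.85%) were higher than in control and 277 (8.95%) lower, where 3.28% of all H3K4me3 regions were higher and 4.1% lower. At 18 hpi, 275 (8.88%) were higher than in control and 254 (8.20%) lower, where 4.8% and 4.02% of all regions were. The median log2 change of the members was -0.10 at 9 hpi and -0.04 at 18 hpi, and that of all regions -0.05 and -0.02. Between 18 and 9 hpi, 120 members (3.88%) were higher at 18 hpi and 49 (1.58%) lower, where 1.43% and 0.832% of all regions were. Both comparisons with control use the same control library, so they are given side by side and no agreement between them is counted.

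The share of members that changed was greater where the signal was weaker. The members were split by mean pileup into 5 classes of near-equal size, and promoter regions were counted within the bounds of each class. Of all H3K4me3 regions, 7.38% were 2-fold away from control in either direction at 9 hpi and 8.82% at 18 hpi. In the weakest class, below a mean pileup of 7.07, 26.0% of members differed 2-fold from control at 9 hpi and 33.7% at 18 hpi, against 34.3% and 36.4% of promoter regions. In the second class 20.7% and 21.6% of members differed, against 18.5% and 19.6% of promoter regions. In the middle class, 14.7% and 17.0% of members differed, against 15.0% and 16.8% of promoter regions. In the fourth class 9.69% and 10.2% of members differed, against 6.44% and 9.56% of promoter regions. In the strongest class, from 21.9 upward, 2.91% of members differed at each time, against 0.437% and 1.1% of promoter regions. Within equal bounds the share of promoter regions was thus above that of members in the weakest class and below it in the fourth and the strongest class. The pileups within a class were not matched further.

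**Figure D2:**
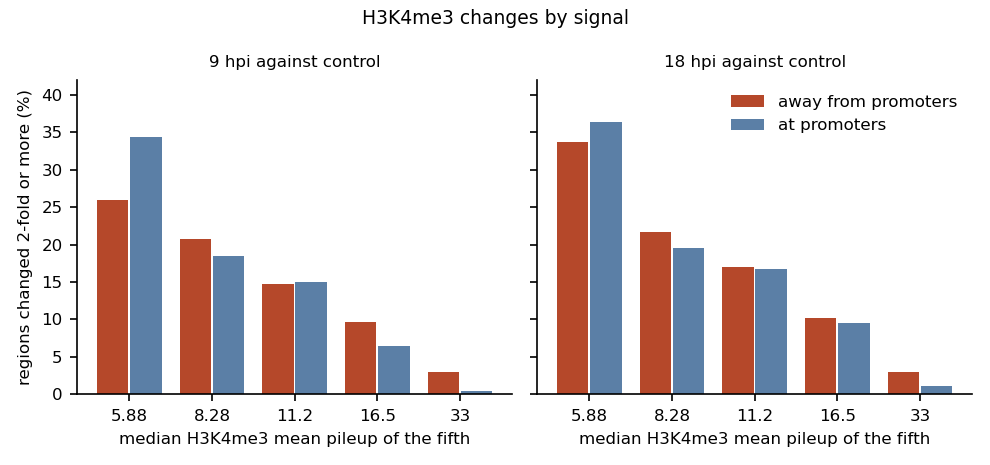
Share of H3K4me3 regions that were 2-fold higher or lower than control at 9 hpi (left) and 18 hpi (right), in 5 classes of mean pileup, for regions away from promoters (red) and promoter regions within the same bounds (blue). The horizontal axis gives the median mean pileup of the regions away from promoters in each class. The shares of regions away from promoters are 26.0% and 33.7% in the weakest class and 2.91% at both times in the strongest.

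The greatest rises among members of at least median signal were at regions of low pileup in control, which ranking by change from control favours. The signal limit is on the mean of the 3 libraries, so a region can pass it through the libraries where it is high. LOC101883625 is the nearest gene to the region with the greatest rise at both times, at chr3:58916001-58916600 and 8965 bp upstream of the start. Its H3K4me3 pileup was 4.58 (control), 23.8 (9 hpi) and 52.5 (18 hpi), a log2 change of 2.15 and 3.26, and its H3K27Ac pileup was 9.98, 36.8 and 20.2. H3K4me3 was thus highest at 18 hpi in the member. The H3K27Ac values, highest at 9 hpi, are averages over chr3:58916001-58921000. That H3K27Ac region reaches past the member and counts 1 promoter, so the 2 marks were not read over the same stretch.

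The member within plxnb1a, a plexin receptor for semaphorins, lay 91526 bp past the start at chr23:10110601-10111200. H3K4me3 there had a pileup of 2 (control), 6.78 (9 hpi) and 25.7 (18 hpi), with an interval called at 18 hpi alone. One of the 2 members within mical3b, of the MICAL family of actin-oxidizing enzymes, had 2.76, 9.85 and 22.7 at chr4:9752201-9754800, and the other 8.60, 6.36 and 5.78. At the plxnb1a member and the first mical3b member the 18 hpi value stood more than 2-fold above that of 9 hpi.

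Genes of septins, the GTP-binding proteins of cytoskeletal filaments, held a pair of the greatest rises. One of the 2 members within sept9b (chr6:22548801-22552400) had an H3K4me3 pileup of 3.11, 14.3 and 16.4, while the other, at chr6:22503401-22505000, had 31.1, 12.9 and 21.6 and was lower at 9 hpi. One of the 2 members within sept12 (chr3:28440001-28440600) had 3, 13.7 and 19.9, and the other 6.32, 11.1 and 12.3, within 2-fold of control. The sept9b members thus moved in opposite directions at 9 hpi. The member within klc1a, a kinesin light chain, had 4.29, 16.7 and 20.6, and its H3K27Ac pileup was 8.24, 27.7 and 23.0. The remaining greatest rises were within LOC101884097 (5.07, 20.2 and 20.96) and si:ch211-106a19.1 (3.64, 14.4 and 22.4). All 8 regions named here for a rise overlapped H3K27Ac, as did 78.5% of all members. None held a CpG island, against 14.1% of all members. Each had its highest H3K4me3 pileup at 18 hpi, which the ranking favours for those picked by their rise at 18 hpi.

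The greatest falls were at regions of moderate signal in control, which the same ranking and signal limit favour. At 9 hpi the greatest was at chr23:2101601-2102200, with no gene listed, no H3K27Ac and H3K27me3 along its whole length. The H3K4me3 pileup was 27.1 (control), 5.16 (9 hpi) and 7.84 (18 hpi), a log2 change of -2.19 and -1.67. The member within pde1a, a phosphodiesterase of cyclic nucleotides, had 27, 6.47 and 12 at chr9:44781601-44782600, and its H3K27Ac pileup was 11.7, 5.16 and 3.28. The member within bco2b, a carotenoid-cleaving oxygenase, had 23.8, 7.76 and 12.6. In these 3 regions the 18 hpi value lay between those of 9 hpi and control, which picking by the fall at 9 hpi favours. The sh2d3ca member, also among the greatest falls at 9 hpi, was lower still at 18 hpi (22.9, 7.88 and 6.26).

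At 18 hpi the greatest fall was within rassf5, a Ras effector, at chr11:21191401-21192800, with an H3K4me3 pileup of 22.7, 8.82 and 4.05. The member within sh2d3ca, an SH2 adaptor, had 22.9, 7.88 and 6.26, and its H3K27Ac pileup was 13.9, 4.08 and 5.93. The other greatest falls were near LOC100006557 and within gpr19 at 9 hpi, and within si:ch73-54n14.2, at chr21:24548801-24553600 and within pax7a at 18 hpi. At LOC100006557 H3K27Ac went the other way, with a pileup of 5.52, 15.3 and 7.72, while H3K4me3 was 23.4, 7.33 and 12.5.

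**Figure D3:**
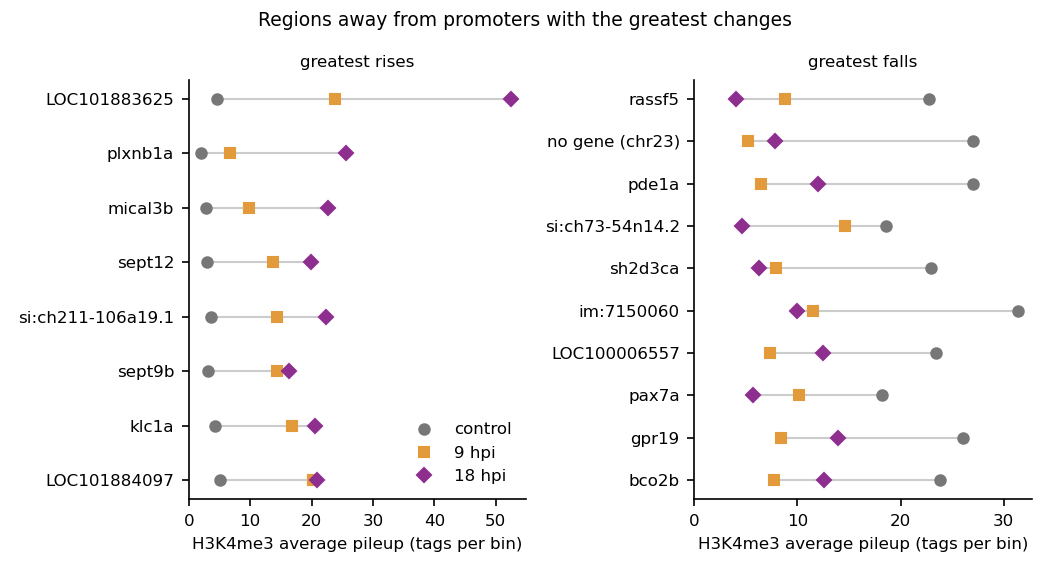
H3K4me3 average pileup in control (grey circles), at 9 hpi (orange squares) and at 18 hpi (purple diamonds) for the 8 regions with the greatest rises (left) and the 10 with the greatest falls (right) at either time, among regions away from promoters of at least median signal. In the left panel each control value is the lowest of its row, between 2 and 5.07. In the right panel each control value is the highest, between 18.2 and 31.4. Ranking by change from control favours both patterns.

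Most members lay in H3K27Ac regions. An overlap of at least 1 bp was present for 2431 members (78.5%, 77.0 to 80.0%), against 89.3% of promoter regions, and in 1430 of the 2431 (58.8%) the H3K27Ac region covered the whole member. The 2431 members pair with 2389 distinct H3K27Ac regions, so a few share one. Only 201 of the 2431 (8.27%) overlapped an H3K27Ac region that itself counts a promoter. Seen from the other mark, members took up a small share of the H3K27Ac landscape, since of 23816 H3K27Ac regions without a promoter 9.40% overlapped a member and 10.5% any H3K4me3 region. Of H3K27Ac regions at promoters, 80.8% overlapped an H3K4me3 region.

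The H3K27Ac regions that overlapped members were stronger than H3K27Ac regions without a promoter in general. Their median H3K27Ac pileup was 14.1 (control), 15.4 (9 hpi) and 12.11 (18 hpi), where all H3K27Ac regions without a promoter had 10.0, 8.62 and 8.11. Their median was thus highest at 9 hpi, while that of all regions without a promoter was highest in control. H3K27Ac regions at promoters had 16.6, 19.7 and 14.6, so a median highest at 9 hpi was not particular to the members. Of the 2431 H3K27Ac regions paired with members, 201 (8.27%) count a promoter themselves.

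The share of members with H3K27Ac was greater where H3K4me3 was stronger. It was 68.9% in the weakest class, 69.1%, 73.2% and 83.7% in the next ones and 97.7% in the strongest, and promoter regions within the same bounds had 60.1%, 61.0%, 73.3%, 87.2% and 99.1%. In the 2 weakest classes the share was higher in members, with intervals of 65.1 to 72.5% and 65.3 to 72.8%, than in promoter regions, with intervals of 56.7 to 63.4% and 58.0 to 64.0%. H3K27me3 overlapped 951 members (30.7%, 29.1 to 32.4%), against 45.0% of promoter regions. In the 4 weaker classes its share was 20.8%, 24.9%, 32.5% and 34.4% in members and 46.7%, 56.3%, 58.3% and 58.2% in promoter regions, while in the strongest class it was 41.0% and 37.2%. Lower H3K27me3 overlap within equal bounds of H3K4me3 signal was thus seen in the weaker members alone, by these counts. The classes were not matched for length. Members had a median of 1799 bp and promoter regions 3399 bp, and a longer region has more room for a 1 bp overlap.

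**Figure D4:**
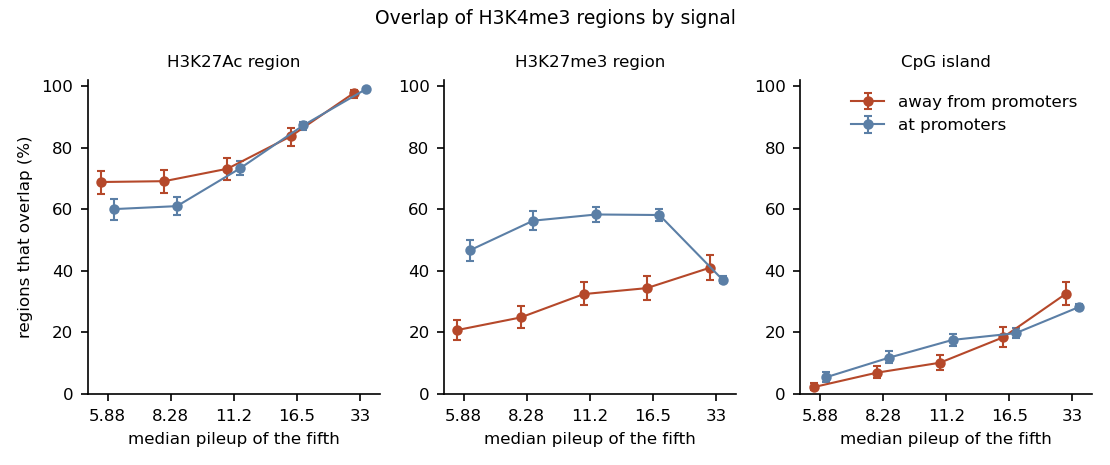
Share of H3K4me3 regions that overlap an H3K27Ac region (left), an H3K27me3 region (middle) and a CpG island (right), in 5 classes of mean pileup, for regions away from promoters (red) and promoter regions within the same bounds (blue). Bars are exact 95% binomial intervals of counting error, and the horizontal axis gives the median pileup of each class. H3K27Ac overlap of regions away from promoters lies at 68.9% in the weakest class and 97.7% in the strongest, and their H3K27me3 overlap at 20.8% and 41.0%.

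Both lysine 27 marks overlapped 730 members (23.6%) and neither overlapped 444 (14.3%), against 38.1% and 3.76% of promoter regions. CpG islands, stretches rich in unmethylated CG that often lie at promoters, were counted by the authors in 436 members (14.1%), against 23.1% of promoter regions. Among members with a CpG island 59.6% (54.9 to 64.3%) overlapped H3K27me3, and among those without one 26.0% (24.3 to 27.7%). H3K27Ac overlap was close, at 77.3% with and 78.7% without a CpG island, although the members with an island had a median mean pileup of 20.3, against 10.4 without.

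The 665 members without H3K27Ac were weaker, with a median mean pileup of 8.85, against 12.4 for those with it. The strongest of them lay within LOC556622 at chr5:18267801-18270000, with an H3K4me3 pileup of 42.8, 36.8 and 27.8, a CpG island and H3K27me3 along its whole length. The next, at chr17:1109601-1111400 with no gene listed, had 38.0, 27.9 and 21.6 and also a CpG island and full H3K27me3. The other 2 of the 4 strongest lay downstream of LOC100332943 (22.8, 26.2 and 37.2) and LOC103909764 (26.5, 23.3 and 32.3) and overlapped neither lysine 27 mark. The first 2 were highest in control and the last 2 at 18 hpi, all by less than 2-fold.

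H3K27Ac moved in the same direction as H3K4me3 at most changed members, as it did at most changed promoter regions. The median change of all H3K27Ac regions was 0.11 at 9 hpi and -0.21 at 18 hpi on the log2 scale, and H3K27Ac changes are given relative to it. At 9 hpi, the 136 members with H3K27Ac whose H3K4me3 was higher than in control had a median relative H3K27Ac change of 1.06. Of these, 75 had H3K27Ac 2-fold higher and 0 had it 2-fold lower, where 10.5% of all H3K27Ac regions were higher and 17.0% lower. A count of 0 allows a share of up to about 2.21%, by an approximate limit that takes regions as independent. The 211 members whose H3K4me3 was lower had a median of -0.85, with 80 lower and 3 higher, and the 2084 in between had 0.06. Promoter regions with H3K27Ac had medians of 1.22 where H3K4me3 was higher and -1.12 where it was lower. H3K27Ac was 2-fold higher in 66.7% of the former, against 55.1% of members, and 2-fold lower in 56.8% of the latter, against 37.9%.

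At 18 hpi, the 214 members with higher H3K4me3 had a median relative H3K27Ac change of 0.73, with 67 higher and 2 lower, where 12.5% of all H3K27Ac regions were higher and 12.8% lower. The 195 members with lower H3K4me3 had a median of -0.75, with 69 lower and 4 higher. Promoter regions had medians of 0.72 and -0.94 in these classes. H3K27Ac was 2-fold higher in 34.8% of the former, against 31.3% of members, and 2-fold lower in 47.2% of the latter, against 35.4%. Across the 2431 members the Spearman correlation of both changes was 0.56 at 9 hpi and 0.42 at 18 hpi, and across 12858 promoter regions 0.45 and 0.17. These correlations run across regions of the same 4 libraries each, which came from the same pools, and regions are not independent replicates.

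**Figure D5:**
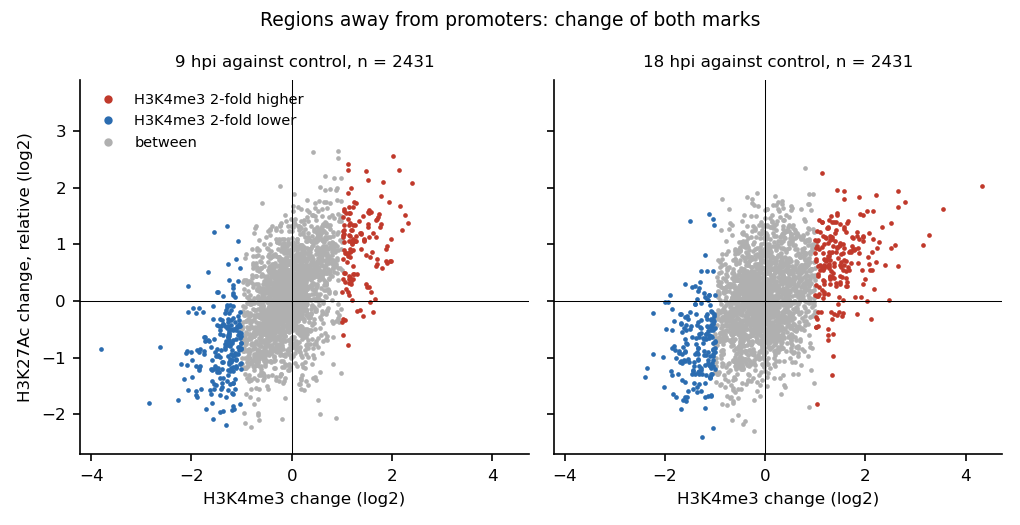
Change of H3K4me3 (horizontal, log2) and of the overlapping H3K27Ac region relative to the median of all H3K27Ac regions (vertical, log2) at 9 hpi (left) and 18 hpi (right) against control, for the 2431 regions away from promoters with H3K27Ac. Red and blue points are 2-fold higher and lower in H3K4me3 and grey points lie between. Red points lie mostly above 0 (medians 1.06 and 0.73) and blue points mostly below it (medians -0.85 and -0.75).

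CpG islands were rarer among the members higher than in control than among those between the limits, at both times. H3K27Ac overlapped 75.1% of the members higher at 9 hpi, 76.2% of those lower and 79.0% of those between, and at 18 hpi 77.8%, 76.8% and 78.8%. At 18 hpi a CpG island was present in 3 of 275 higher members (1.09%, 0.226 to 3.15%), in 43 of 254 lower ones (16.9%, 12.5 to 22.1%) and in 15.2% of those between. At 9 hpi it was present in 7.18% (3.88 to 12.0%) of the higher, 9.39% (6.22 to 13.5%) of the lower and 15.0% of the other members. By these counts the share was smaller in the higher than in the lower members at both times, by more at 18 hpi. The intervals cover counting error over regions of 1 library per stage, so they do not test a difference between these groups. The median mean pileup was 7.99 in the higher and 8.07 in the lower members of 18 hpi, against 12.3 in those between. At 9 hpi it was 8.38, 8.09 and 12.0. The part of signal in these island shares was not tested. H3K27me3 overlapped 30.9% of the members higher at 9 hpi and 21.3% of those lower, and at 18 hpi 21.8% and 23.6%.

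Most members lay inside genes. By the listed gene with the smallest distance, 1863 (60.2%, 58.4 to 61.9%) lay inside the gene, 495 (16.0%) downstream of it and 109 (3.52%) upstream, and 629 (20.3%) had no gene listed. Of promoter regions under 7000 bp, 84.5% lay inside a gene and 14.5% upstream. Members upstream lay 7851 to 13415 bp from the start, while distances reached 591176 bp inside and 585725 bp downstream. The shares upstream and without a gene thus depend on the range over which the authors listed genes. The middle of those inside a gene was a median of 24460 bp from the gene start, with quartiles of 10136 and 61440 bp. The members list 2061 distinct nearest genes, 309 of them with 2 or more members. The gap to the nearest other H3K4me3 region had a median of 18200 bp, against 13600 bp for promoter regions, and 8.62% of members lay within 2000 bp of another region.

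Members without a listed gene had the highest share of H3K27me3, 45.2% (41.2 to 49.1%), against 24.0% of those inside a gene, and the lowest share of H3K27Ac, 68.2% against 82.8%. Among the members lower at 9 hpi 71.5% lay inside a gene, and at 18 hpi 75.2%, against 60.2% and 63.6% of the higher ones and 59.0% and 58.3% of the others. At 9 hpi 10.6% and at 18 hpi 10.3% of the members inside a gene were lower than in control, of those upstream 11.0% and 8.26%, and of those downstream 5.25% and 3.23%. The share higher at 18 hpi was 9.39% inside, 8.26% upstream and 7.68% downstream.

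Some long genes held several members. Between 4 and 7 members lay at 20 genes, which were picked for this number after the values were seen. The greatest number was 7, within pleca, whose product plectin links intermediate filaments to other cytoskeletal parts. Its members at chr19:22982001-22985000, chr19:23005001-23006600 and chr19:23021201-23021800 were lower at 9 hpi. Their H3K4me3 pileup was 20.6, 9.51 and 14.3 at the first, 20.9, 8.62 and 15.4 at the second and 15.8, 6.53 and 18.2 at the third. The other 4 were between the limits at 9 hpi, and none of the 7 was 2-fold away from control at 18 hpi.

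Of the 5 members within iqsec1, an exchange factor for ARF GTPases, 3 were lower at 9 hpi and 3 at 18 hpi, against the same control library. Members of the gene differed, since the one at chr11:26578401-26579200 had 12.6, 2.44 and 2.87 and that at chr11:26524001-26525600 had 3.64, 7.82 and 10.3. H3K27Ac at the first was 11.04, 5.30 and 7.12 and at the second 7.30, 19.8 and 11.9. Of the 4 members within psd3l, also an ARF exchange factor, 2 were lower at 9 hpi and 2 at 18 hpi, and the one at chr10:7223001-7226000 had 28.7, 11.9 and 9.32. The 5 members of macf1a, a cross-linker of actin and microtubules, had mean pileups of 9.00 to 54.7 and none of them changed 2-fold.

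The gene lists touched few members. Of 1024 genes in 17 lists, 92 were the nearest listed gene of a member, with 107 distinct members. Ribosomal protein and ribosome biogenesis genes had none of 49, and HOX genes 1 of 49. Among all members, 5.85% were higher and 8.95% lower at 9 hpi, and 8.88% and 8.20% at 18 hpi. Among all H3K4me3 regions these shares were 3.28%, 4.1%, 4.8% and 4.02%. The lists are short, and no list count below was tested against these shares.

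Of 87 sarcomere and contraction genes 6 had a member, 7 members in all, and each of the 7 lay inside its gene and overlapped H3K27Ac. At 9 hpi 3 of the 7 were lower than in control and none higher, with a median log2 change of -0.79, and at 18 hpi 2 were lower and none higher, with a median of -0.46. With a pseudocount of 5 the 3 missed 2-fold at 9 hpi, with log2 changes of -0.99, -0.83 and -0.76. The 2 of 18 hpi then had -0.997 and -1.02. The member within myoz1b, a Z-disc protein that binds calcineurin, lay at chr12:26313601-26315000 and had an H3K4me3 pileup of 10.2, 2.62 and 2.60 and an H3K27Ac pileup of 11.2, 3.45 and 2.15. One of the members of mylk4b, a myosin light chain kinase, at chr20:26945201-26947200, had an H3K4me3 pileup of 11.6, 4.34 and 3.2, and the other 15.9, 9.02 and 11.5. The myoz1b member and the first mylk4b member were called in control and at neither injured stage.

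The member within smyd1b, a methyltransferase needed for thick filament assembly in zebrafish, had an H3K4me3 pileup of 17.1, 8.04 and 11.4 at chr8:985201-986000. Its H3K27Ac pileup was 31.9, 15.6 and 6.02, lowest at 18 hpi where H3K4me3 was not. The strongest member of the list lay within tpm1, a tropomyosin gene, and was named after its values were seen. H3K4me3 there had a pileup of 90, 71.0 and 65.4 and its H3K27Ac pileup 55.8, 95.8 and 48.9, so it was not 2-fold away from control in H3K4me3 at either time.

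Of 52 genes of myogenic regulators 16 had a member, 17 in all, of which 14 overlapped H3K27Ac. At 9 hpi 1 was lower and none higher, and at 18 hpi 2 were lower and 1 higher. The member within pax7a, the transcription factor of muscle satellite cells, lay at chr11:40725201-40726000, 73580 bp past the start, with a CpG island, H3K27me3 along its whole length and no H3K27Ac. The H3K4me3 pileup was 18.2, 10.2 and 5.64. The member within vgll2b, a cofactor of TEAD factors, had 16.9, 8.46 and 7.69, and that within tead1b, a TEAD factor, 2.28, 4.26 and 6.83. The member within rbfox1, a splicing regulator, had 28.5, 13.5 and 17.0 and was the one lower at 9 hpi, with a log2 change of -1.02. It missed 2-fold with a pseudocount of 5 (-0.86), with the maximum pileup (-0.87) and centred on all regions (-0.97). The pax7a and vgll2b members were thus lower at 18 hpi and the tead1b member higher. With a pseudocount of 5 the pax7a member kept 2-fold at 18 hpi (-1.13), while the vgll2b (-0.79) and tead1b (0.70) members missed it.

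Developmental transcription factors outside the HOX clusters had 26 members at 19 of 170 genes, 23 with H3K27Ac. At 9 hpi 4 were higher and 2 lower, and at 18 hpi 1 was higher and 2 lower. With a pseudocount of 5 all of those at 9 hpi missed 2-fold. The log2 changes were then 0.75 (six6b), 0.71 (foxp2), 0.72 (tbx3a), 0.71 (nfic), -0.75 (gata4) and -0.85 (gli2a). At 18 hpi they were 0.94 (nfic), -1.24 (ebf1a) and -1.07 (nfixa). The member of ebf1a and 1 of the 3 members of nfixa were lower at 18 hpi, with an H3K4me3 pileup of 14.8, 7.25 and 3.33 within ebf1a and of 11.7, 10.9 and 2.92 within nfixa. A member within nfic, a nuclear factor I gene as is nfixa, had 4.55, 10.6 and 13.4, while its other member had 14.8, 14.9 and 9.09. The member within gata4 had 9.61, 3.71 and 5.19. Within this list changes thus ran both ways, and at nfic both ways within 1 gene.

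Lists of other cell types held few members. The endothelial list had 5, all with H3K27Ac, of which 2 were higher at each time. The member downstream of cdh5, which encodes VE-cadherin, had an H3K4me3 pileup of 2.76, 7.60 and 9.96, and that downstream of nrp1b, a co-receptor for VEGF, 4.31, 9.85 and 15.3. The H3K27Ac pileup over the cdh5 member was 11.1, 12.2 and 7.72. Both were called at 18 hpi alone, beside summed endothelial marker levels that were lowest at 18 hpi. Those sums were not set relative to the median log2 change of all H3K27Ac regions, which was -0.21 at 18 hpi.

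The erythrocyte list had 3 members, of which 1 was lower than the shared control library at 9 hpi and at 18 hpi. It lay within ank1a, an ankyrin of the red cell and muscle membrane skeleton, at chr5:68144801-68146200. Its H3K4me3 pileup was 17.4, 4.11 and 4.78 and its H3K27Ac pileup 26.7, 11.9 and 5.37, beside a summed erythrocyte marker level of 37.6, 19.7 and 11.9. The other member of ank1a had an H3K4me3 pileup of 8.98, 13.0 and 5.49, and that downstream of cahz, a carbonic anhydrase gene, 4.3, 6.04 and 3.28. Both were within 2-fold of control, and the median log2 change of the 3 was 0.41 at 9 hpi and -0.62 at 18 hpi. The nerve and Schwann cell list had 9 members, of which none differed 2-fold at 9 hpi and 2 were lower at 18 hpi. These lay within nrg1, a neuregulin, with 13.2, 9.93 and 4.39, and within nrxn3a, a neurexin, with 12.7, 8.86 and 4.84. The other member of nrg1 had 10.8, 7.17 and 8.14 and that of nrxn3a 15.1, 16.5 and 16.0, within 2-fold of control.

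The leukocyte list had 3 members and none was 2-fold away from control. The one within mpx, the myeloperoxidase gene of neutrophils, had an H3K4me3 pileup of 49.7, 54.7 and 49.0. The member near fcer1gl, an Fc receptor chain, had an H3K4me3 pileup of 8.64, 7.2 and 12.8, while its H3K27Ac pileup was 4.88, 24.9 and 15.1. The member within csf1rb, a receptor gene for colony-stimulating factor, had an H3K4me3 pileup of 3.35, 7.68 and 5.98, with intervals in both injured libraries and not in control. Its log2 change at 9 hpi was 0.996, just short of 2-fold, and its maximum pileup of 11, 24 and 18 tags passed 2-fold at 9 hpi. Summed leukocyte markers were highest at 9 hpi too. The 3 genes were named after their values were seen.

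The inflammation and cytokine list had 4 members, of which 1, within traf3, a signalling adaptor of TNF receptors, was higher at 9 hpi, with 3.13, 8.61 and 4.58. The member downstream of the matrix protease gene mmp9, named after its values were seen, had 52.6, 48.8 and 53.7. The retina and epidermis list had 2 members, of which 1 was higher at both times. It lay within mitfa, the main transcription factor of pigment cells, with 3.75, 12.8 and 15.4. The HOX member, nearest to hoxa4a, had 4.36, 10.3 and 8.64, was higher at 9 hpi, held 2 CpG islands and overlapped H3K27me3 but not H3K27Ac.

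FGF, Wnt and Notch genes had 12 members at 10 of 110 genes, of which 1 was lower at each time. It lay within fgf12b, an intracellular FGF, with 7.24, 2.60 and 3.02, while the other 2 members of that gene had 22.0, 25.2 and 22.3, and 13.6, 17.9 and 11.6. The members of the lists of immediate early and stress factors (3), matrix, fibroblasts and tendon (3), enzymes and cofactors of the H3K4 and H3K27 marks (3), chaperones and heat shock (4) and cytoskeleton and cell migration (6) were all within 2-fold of control at both times. The median log2 change at 9 hpi was 0.12, 0.68, -0.59, -0.52 and -0.04 in that order. The 3 members of the histone mark list lay downstream of rbbp5, a subunit of H3K4 methyltransferase complexes (15.6, 9.43 and 11.2), within kmt2e, of the MLL family (10.3, 8 and 7.63), and within kdm6ba, an H3K27 demethylase gene (29.0, 19.0 and 16.4).

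Chromosome 4 had the highest share of members. Of its 863 H3K4me3 regions 214 were members (24.8%, 21.9 to 27.8%), against 16.1% of the regions of all other chromosomes, and the lowest share was 13.7%, on chromosome 20. Its members overlapped H3K27Ac in 57.0%, against 80.1% elsewhere, and had no gene listed in 32.2%, against 19.4%, although the share without a listed gene was higher on chromosome 9 (33.6%). The long arm of zebrafish chromosome 4 is known for repeats, which can share reads, so single regions there are uncertain.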

How the data were processed

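Chromatin of pooled lateral rectus muscle was immunoprecipitated for H3K4me3, H3K27Ac and H3K27me3 in 9 libraries, and the input library was not used. BWA, MACS2 2.1.0, SICER 12.1 and the build danRer10 are named in the submitters' processing notes without role or order, and the sources used here do not say which caller and threshold made the lists. The deposited values are signal, the average and maximum tag pileup of a library over each interval or merged region; neither the authors' scaling between libraries nor the tag totals are given in the sources used here, so no precision from depth can be stated. The authors also deposited other columns, namely interval presence as 0 or 1, counts of promoters and CpG islands, and gene names with distances from the region's middle. Where bounds were equal, 100% of averages matched the interval list of the same library within 0.0015. Columns matched to no sample numbered 0.

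Changes were log2((a + 1)/(b + 1)) of average pileups over all members, without a filter, and were called at 2-fold. The overlap script and the counts were tested on simulated data. Overlap needed 1 bp, and the H3K27Ac or H3K27me3 region with the longest overlap was used. Its pileup is the average over that whole region, which can reach past the member. Intervals are exact (Clopper-Pearson) at 95%, while the limit at a count of 0 is approximate, 3 over the number of regions. Named were the 8 strongest members, the 6 greatest rises and falls at each time among members of at least median signal, the 4 strongest without H3K27Ac and without a listed gene, and up to 4 changed members per list. Members and lists were chosen with earlier results of these data known. Coordinates are those of the files, counted from 1; no genome or sequence was used. Python 3.11.15, numpy 2.4.6, pandas 2.3.3 and scipy 1.17.1 were used.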

Additional observations from a re-analysis of the deposited data

How the results depend on the processing

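With 1 library per group, leaving out a replicate was not possible. No paired analysis was possible because each group has 1 library and no fit was made. In the order higher and lower at 9 hpi against control, higher and lower at 18 hpi against control, and higher and lower at 18 against 9 hpi, the counts of members were 44, 107, 104, 93, 23 and 7 with a pseudocount of 5, 432, 629, 581, 600, 460 and 265 at 1.5-fold and 43, 61, 89, 59, 11 and 2 at 3-fold. They were 31, 69, 48, 56, 15 and 12 among the 1401 members at or above the 25th percentile of signal and 25, 58, 36, 53, 7 and 7 among the 1726 called in all 3 libraries. With the maximum pileup, 227 were higher and 97 lower at 18 against 9 hpi. Of members 2-fold away from control at 18 hpi, 52.0% were higher, and 40.4% among those called in all 3 libraries; at 9 hpi 39.5% were higher, and 29.1% with a pseudocount of 5; at 18 against 9 hpi 71.0% were higher, with 55.6% under the signal filter, 84.6% at 3-fold and 50.0% among those called in all 3. The median log2 change at 9 hpi was -0.15 with the maximum pileup and -0.048 or -0.050 after centring on all or on promoter regions. At 18 hpi it was -0.071 with the maximum pileup, -0.075 with the filter and -0.021 centred on all regions. At 18 against 9 hpi it was 0.067 with a pseudocount of 5, 0.12 with the maximum pileup, 0.045 or 0.042 centred on all or on promoter regions, 0.051 with the filter and 0.053 when called in all 3. H3K27Ac overlapped 71.8% of members when 50% of the member had to be covered, and 66.9%, 70.7% and 61.8% by intervals of the control, 9 hpi and 18 hpi libraries. H3K27me3 overlapped 28.3% at 50% and 25.7%, 24.97% and 24.5% by library. Inside any listed gene lay 63.8%. Dropping the length limit kept each count within 1.5 times. So did leaving out members with a listed gene start within 10000 bp, which keeps those without a listed gene. Of the regions eligible for naming that were 2-fold away from control, 27 of 49 at 9 hpi and 20 of 46 at 18 hpi missed 2-fold with a pseudocount of 5 and none turned direction in the 4 alternatives run; the cause of these shifts beyond the construction of each alternative was not tested. Unknown tag totals and weak signal limit every single region.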

Other observations

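Members listed with a microRNA or a tRNA gene were picked after the values were seen. Of 146 H3K4me3 regions that list a microRNA, 6 were members, and all 6 overlapped H3K27Ac, as did 78.5% of all members. The member downstream of mir146b-1, whose mammalian counterpart restrains NF-kB signalling, lay at chr21:41635601-41636800 and was the one 2-fold away from control, with an H3K4me3 pileup of 10.6 (control), 24.9 (9 hpi) and 18.5 (18 hpi) and an H3K27Ac pileup of 12.6, 24.1 and 20.3. The member near mir155, a microRNA of immune cells in mammals, at chr1:584801-588000, had an H3K4me3 pileup of 49.0, 45.0 and 42.1, while its H3K27Ac pileup was 23.3, 46.5 and 25.7. The member upstream of mir222 had an H3K4me3 pileup of 5.56, 10.4 and 5.82 and an H3K27Ac pileup of 12.7, 26.7 and 18.0. At these 3 regions H3K27Ac was highest at 9 hpi. The members near mir23a-4 (18.4, 24.8 and 26.2), mir24-5 (18.0, 10.8 and 16.0) and mir23a-1 (5.91, 4.51 and 5.70) were within 2-fold of control in H3K4me3. Their H3K27Ac values are not given here.

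Of 276 H3K4me3 regions that list a tRNA gene, 11 were members, 7 of them on chromosome 4, where 2 of the 7 overlapped H3K27Ac. Their mean pileups ran from 3.63 to 26.9. The member downstream of LOC101886363, which also lists trnaa-ugc, was higher at both times, with an H3K4me3 pileup of 2.22, 7.23 and 7.68 and an H3K27Ac pileup of 4.5, 12.6 and 12.6, and the other 10 were within 2-fold of control. Near-identical tRNA copies can share reads, so these values are uncertain.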
